A study of Mus musculus with 8 samples.

Results

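Solute carriers are membrane proteins that move nutrients, ions, vitamins and metabolites across the cell surface and the membranes of organelles, and their gene names give the family (Slc25) and the member (a1). The genes described here were chosen by 2 properties of the array probes: a name of that form, and a probe that the scanner software marked as well above background on 2 of 2 arrays in 1 or more groups. Signal therefore selected them, and that they were detected is not a finding. Of 339 solute carrier names on the array, 206 were kept, among 20686 genes kept in all, and the kept carriers were represented by 264 of 458 probes. Each gene is given by its kept probe with the highest mean signal over the 8 arrays. Of the 206, 172 were well above background on 8 of 8 arrays, 10 on both arrays of 1 group only, and 23 were dim on both arrays of at least 1 group. Just inside the threshold lay Slc16a5, Slc39a5, Slc5a5 and Slc6a19, each above background on 2 arrays with mean signals from 8.67 to 22.4, and just outside lay Slc24a4 and Slc38a3, each above background on 3 arrays with mean signals of 21.3 and 21.2. Of the kept names, 5 belong to genes called after a carrier, such as Slc9a3r1, which encodes a scaffold protein and not a transporter. They form a class of their own but stay among the 206 and in all counts of members below. The name pattern takes Slc35a but not other Slc35 branches.

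The cells were the mouse pre-B line 1676, which lacks the adaptor proteins SLP-65 and LAT (genotype SLP-65-/- LAT-/-; this LAT is the signalling adaptor, not the amino acid transporter LAT1). All 4 groups shared that genotype, 7.5% FCS and puromycin selection at 1 µg/ml. They had been transduced with a retroviral control vector or with a retrovirus that expresses human miR-125b (hsa-miR-125b-1), and were kept in excess IL-7 from the supernatant of IL-7-expressing J558L cells or for 24 h without IL-7, a step the labels give as a way to start differentiation. Each of the 4 groups, control with IL-7, miR-125b with IL-7, control without IL-7 and miR-125b without IL-7, held n = 2 arrays, and the design names independently made clones for each repetition. All groups come from this single line, so p-values cover the spread between arrays of its derivatives.

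Growing lymphocyte precursors import amino acids, glucose, phosphate, iron, zinc and folate through solute carriers, and their mitochondria exchange ADP, ATP, phosphate and citrate with the cytosol through the Slc25 family. IL-7 is the growth and survival factor of pre-B cells, and its loss lets them leave the cycle and rearrange their light chain genes. miR-125b is a short RNA that pairs through its seed, bases 2 to 8, with messenger RNAs. The mouse mature sequence, which is the same in human, lies at chr9:41581940-41581961 on the plus strand of GRCm38.p6 in the RefSeq annotation; it is shown because it is the agent that separates the vector groups, with its seed in capitals.
miR-125b-5p: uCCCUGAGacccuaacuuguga

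RNA was measured on single-colour 60-mer arrays. Levels below are log2 processed signals from which each array's 75th percentile (log2, all probes) was subtracted, so that 0 is the signal that 75% of that array's probes do not exceed, and differences are in the same log2 unit. The level of 1 probe cannot be set against that of another. Between 47.7% and 54.8% of 55681 probes were well above background on an array, and 0 probes were saturated. All 4 arrays with IL-7 were on 1 slide and all 4 without IL-7 on another, with their own scan and their own version of the scanner software, so a change on withdrawal and a change of slide or scan cannot be told apart. That percentile lay at signals of 275.6 to 313.8 on the first slide and of 515 to 619.5 on the second. Vector comparisons lay within a slide, but control arrays occupied other columns of the slide than miR-125b arrays, so vector and slide position cannot be told apart either. Replicates of a group correlated across the 206 genes at r of 0.99 to 0.995, and the SD of their difference was 0.313 to 0.454; genes are not independent replicates.

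The label of pre-B cells was checked on 12 markers, and 12 were well above background on 8 of 8 arrays, among them Cd79a, Vpreb1, Igll1 and Il7r. Their summed log2 level was 10.86 to 10.91 with IL-7 and 10.51 to 10.56 without. Recombinase genes moved with withdrawal: Rag1 was at 1.26 and 1.54 in control cells with IL-7 and at 4.17 and 4.38 without. Of markers of other cells, 6 of 8 myeloid, 5 of 8 T and NK, 3 of 7 erythroid, 4 of 6 plasma and 1 of 6 stromal genes were kept, while Mpo, Cd3g, Jchain and Col1a1 were not. With miR-125b, Il7r, the receptor of IL-7, was lower in both conditions, with a difference of -0.64 (limma adjusted p = 0.0415) with IL-7 and of -0.59 (limma adjusted p = 0.0299) without. In the average over both, the markers Rag2 (0.97), Epor (0.83) and Xbp1 (0.42) were higher and Lck (-0.80) and Klrb1c (-0.43) lower (limma adjusted p of 0.0155 to 0.0492). Summed T and NK markers were at 2.7 to 3.26 with IL-7 and 2.96 to 3.29 without, a sum that hides opposite members. Cd8a was dim on the 4 arrays with IL-7 (-6.72 to -5.81) and at 1.76 to 1.91 on the 4 without. On withdrawal Cd3e fell in both cell types (-1.46 and -1.57), Cd4 in control cells (-0.38) and Lck in miR-125b cells (-1.23). Summed myeloid markers ranged from 3.67 to 3.98 with IL-7 and 3.76 to 4.05 without, plasma markers from 4.74 to 5.16 and 5.42 to 5.57, erythroid markers from -2.73 to -1.95 and -1.92 to -1.29, and stromal markers from -3.68 to -3.55 and -4.24 to -3.88. The plasma sum hides opposite members: on withdrawal Irf4 rose (1.52 and 1.36) while Sdc1 (-1.65 and -1.68) and Xbp1 (-0.42 and -0.49) fell. The part of these shifts in the results on withdrawal and on miR-125b was not tested. With bulk RNA, fewer cells expressing a gene and less RNA per cell cannot be told apart.

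The kept names fell into substrate classes assigned by family number; since signal selected them, the shares describe the set and are not a result. Mitochondrial carriers of family Slc25 were kept for 37 of 44 names, transition metal and haem carriers for 24 of 30, and carriers of vitamins, nucleosides, choline and cofactors for 18 of 22. Amino acid and peptide carriers were kept for 29 of 68 names, carriers of inorganic ions and pH for 33 of 57, and carriers of monocarboxylates and other organic ions for 22 of 54. The sugar families, which also hold the inositol, vitamin and iodide carriers of Slc5, were kept for 21 of 34. Smaller classes were nucleotide sugars (5 of 5), vesicular and lysosomal carriers (6 of 12), fatty acids (4 of 6) and the urea transporters of Slc14 (2 of 2). From a list of 37 carriers with known roles in lymphocyte nutrient supply, 35 were kept. The remaining pair were Slc7a11, the cystine importer, with a mean signal of 5.22, and Slc40a1, the iron exporter, with 6.15, neither above background on any array.

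The first question was which carriers differ between miR-125b and control cells growing in IL-7. In limma's test over all 20686 genes (adjusted p under 0.05), 5 members (2.43%) differed, 3 higher and 2 lower with miR-125b, beside 2.38% of all genes (1.18% higher and 1.2% lower). The share lies near the background, and the median difference was 0.00 over the members and -0.02 over all genes. Called members had groups that did not overlap in 5 of 5 cases here and in 20 of 20 without IL-7. On withdrawal it was 97 of 97 in control and 101 of 101 in miR-125b cells. Lack of overlap thus comes with a call, and where it is given below it adds no support to the call.

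Slc14a1, the urea transporter of red cells and kidney vessels, showed the largest rise. Its levels with IL-7 were -1.10 and -0.91 in control cells and 0.64 and 0.50 in miR-125b cells. Without IL-7 they were -0.81 and -0.86 in control cells and 1.31 and 0.65 in miR-125b cells. All 4 miR-125b arrays lay above all 4 control arrays. The difference was 1.58 ± 0.21 (SE) with IL-7 (limma adjusted p = 0.035) and 1.81 ± 0.21 without (limma adjusted p = 0.0151).

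Slc2a6, the hexose transporter GLUT6, was at -3.74 and -3.94 in control cells with IL-7 and at -2.88 and -2.56 in miR-125b cells. The groups did not overlap, and the gene rose by 1.12 ± 0.15 (limma adjusted p = 0.0332). That call was lost in 12 of 18 alternative settings, in which the difference ranged from 0.31 to 1.28. Without IL-7 the order was the other way, at -2.35 and -2.17 in control cells and -2.67 and -2.88 in miR-125b cells, with a difference of -0.52 ± 0.15 that did not pass (limma adjusted p = 0.1). Slc19a2, a thiamine importer, was at 1.20 and 1.14 in control cells and at 1.68 and 1.64 in miR-125b cells, a rise of 0.48 ± 0.08 (limma adjusted p = 0.0472). That call was also lost in 12 of 18 alternative settings, over which the difference ranged from 0.44 to 0.57. Without IL-7 the difference of Slc19a2 was 0.20 ± 0.08 and did not pass (limma adjusted p = 0.191).

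Lower with miR-125b were Slc41a3, a magnesium transporter, and Slc39a5, a zinc importer. Slc41a3 was at -2.97 and -2.74 in control cells and at -3.42 and -3.63 in miR-125b cells, a fall of 0.67 on the log2 scale (SE 0.11, limma adjusted p = 0.0472). Slc39a5 was dim in both groups with IL-7, so its fitted difference of -1.98 has no measured fold. Leaving out single arrays left 0 to 2 called members: 1 without replicate 1 of the control or of the miR-125b cells in IL-7, 0 without replicate 2 of these, 0 without either control array lacking IL-7, and 2 without either miR-125b array lacking IL-7. With levels centred on the median array signal, 2 members were higher and 1 lower, quantile normalization gave 3 and 1, and values of the authors' deposited table gave 4 and 1.

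Without IL-7, 20 members (9.71%) differed between miR-125b and control cells, 11 higher and 9 lower, beside 6.43% of all genes (2.85% higher and 3.58% lower). After the urea transporter, the largest called rises among members on 8 of 8 arrays were those of a zinc importer, a calcium exchanger, mitochondrial carriers and the leucine transporter.

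Slc39a10, the zinc importer ZIP10 with a known role in early B cell survival in mice, was at -0.17 and -0.13 in control cells without IL-7 and at 0.70 and 0.84 in miR-125b cells. The rise was 0.92 ± 0.12 (limma adjusted p = 0.0189). With IL-7 its levels were 0.58 and 0.31 in control cells and 1.04 and 1.20 in miR-125b cells, which also did not overlap, with a difference of 0.67 ± 0.12 (limma adjusted p = 0.0553). Slc24a3, a potassium-dependent sodium-calcium exchanger, was at -2.40 and -2.27 in control cells and at -1.74 and -1.61 in miR-125b cells, a rise of 0.66 ± 0.10 (limma adjusted p = 0.0254). Both pairs of arrays were apart by more than their own spread.

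Among mitochondrial carriers, Slc25a22 imports glutamate and Slc25a26 imports S-adenosylmethionine, the methyl donor. Slc25a22 was at -1.77 and -1.83 in control cells without IL-7 and at -1.20 and -1.16 in miR-125b cells, a rise of 0.62 ± 0.11 (limma adjusted p = 0.0333). Slc25a26 was at 0.64 and 0.72 in control cells and at 1.21 and 1.30 in miR-125b cells, a rise of 0.58 ± 0.10 (limma adjusted p = 0.0327). In IL-7, Slc25a26 was at 0.70 and 0.83 in control cells and at 1.15 and 1.33 in miR-125b cells. The 2 miR-125b groups thus lay above both control groups, but the difference with IL-7 did not pass in limma's test.

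Slc7a5 encodes LAT1, which brings in leucine and other large neutral amino acids together with the heavy chain Slc3a2. Slc7a5 was at 1.72 and 1.88 in control cells without IL-7 and at 2.32 and 2.48 in miR-125b cells, a rise of 0.60 ± 0.10 (limma adjusted p = 0.0294). Its other kept probe differed by 0.20. Slc3a2 was at 4.43 and 4.55 in control cells and at 4.77 and 4.93 in miR-125b cells, and its difference of 0.36 ± 0.12 did not pass (limma adjusted p = 0.125). Slc1a5, the glutamine transporter ASCT2, was at 5.29 and 5.35 against 5.65 and 5.56, a difference of 0.28 ± 0.07 that did not pass either (limma adjusted p = 0.0836).

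The lower members without IL-7 included lysosomal carriers, a zinc importer and an exporter of organic cations. Slc46a3, a lysosomal carrier, was at 1.19 and 1.21 in control cells and at 0.06 and -0.14 in miR-125b cells, a fall of 1.24 on the log2 scale (SE 0.20, limma adjusted p = 0.0306). Slc15a3, a lysosomal peptide and histidine transporter, was at 1.35 and 1.40 against 0.81 and 0.56, a fall of 0.69 (SE 0.12, limma adjusted p = 0.0354). For both genes the control arrays were closely spaced and lay above both miR-125b arrays.

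Slc39a4, the zinc importer ZIP4, fell by 0.70 (SE 0.09, limma adjusted p = 0.018), from -2.14 and -2.20 to -2.89 and -2.85. Slc27a5, a fatty acid and bile acid CoA ligase, fell by 0.76 (SE 0.14, limma adjusted p = 0.0396), from -0.93 and -0.88 to -1.73 and -1.61. Slc43a2, an exporter of neutral amino acids, fell by 0.65 (SE 0.13, limma adjusted p = 0.048), from 2.03 and 2.05 to 1.50 and 1.29. In these 3 genes every miR-125b array was below every control array.

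Slc11a2, the iron importer DMT1, was at 2.37 and 2.41 in control cells and at 1.81 and 1.94 in miR-125b cells, a fall of 0.51 (SE 0.08, limma adjusted p = 0.0267), while its other kept probe differed by -0.07. Slc47a2, an exporter of organic cations, was measured in control cells (-3.91 and -3.63), whereas both miR-125b arrays were not well above background, which put it at least 2.39-fold lower (limma adjusted p = 0.0141). Bounds of this kind set the bright group's mean against, per array, the higher of the lowest signal among probes well above background and the dim probe's own. Slc6a19 was called higher but had no fold above its bound. Slc41a3 was again lower, by 0.58 (SE 0.11, limma adjusted p = 0.0415). Slc14a1 and Slc41a3 were thus called in the same direction in both IL-7 conditions, which is 33.3% of those called higher with IL-7 and 9.09% without for Slc14a1, and 50% and 11.1% of those called lower for Slc41a3. These comparisons share no array, and the same overlap was not counted over all genes. The call of Slc41a3 with IL-7 was lost in 16 of 18 alternative settings, and its difference was -0.31 with normexp background correction.

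Leaving out an array of the groups without IL-7 left 0 or 1 called members, 0 without either control array, 0 without replicate 1 and 1 without replicate 2 of miR-125b. Leaving out either control array with IL-7 left 13. Centred on the array median, 13 members were higher and 2 lower, since that scaling moves the median of all genes from -0.02 to 0.18.

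**Figure D1:**
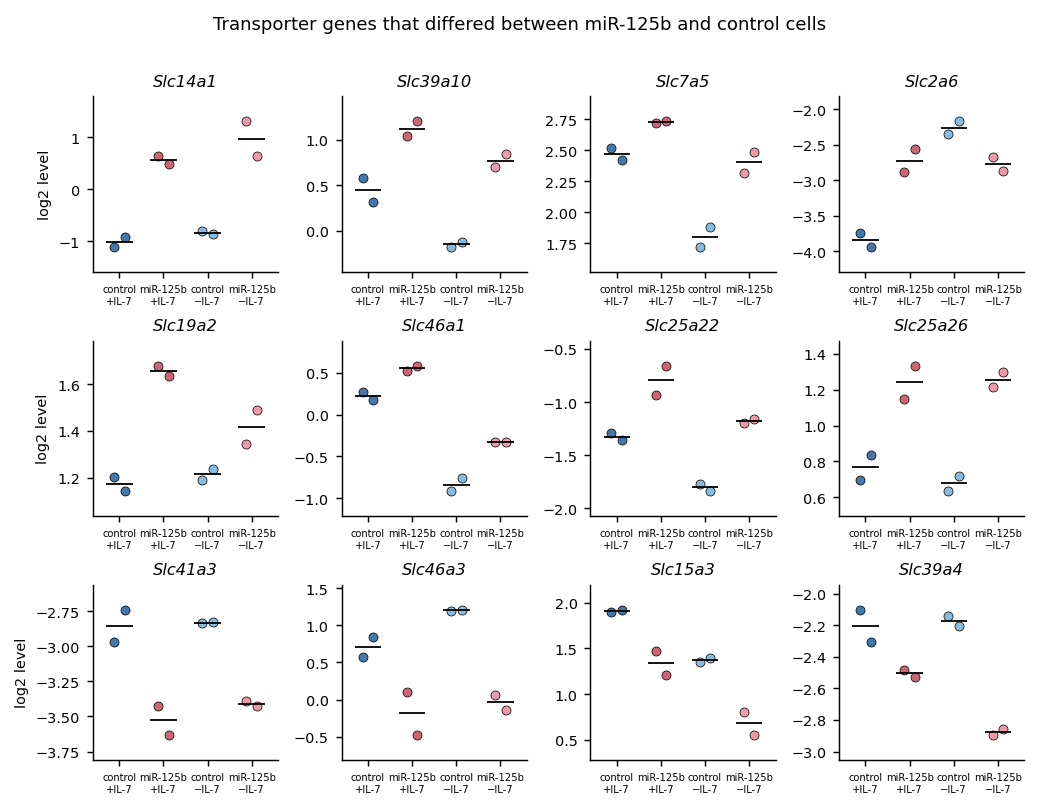
Log2 level (array 75th percentile at 0) of 12 carrier genes on each of the 8 arrays, by group; each point is 1 array and each bar the mean of 2. In the panels of Slc14a1, Slc39a10 and Slc25a26 both miR-125b groups lie above the control group of the same IL-7 condition, and in Slc41a3, Slc46a3, Slc15a3 and Slc39a4 below it; Slc2a6 changes order between conditions.

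Averaged over both IL-7 conditions, 47 members (22.8%) differed between miR-125b and control cells, 29 higher and 18 lower, beside 15.8% of all genes (7.69% higher and 8.11% lower). Restricted to members on 8 of 8 arrays, 43 of 172 were called (25%), against 16.7% of the 17036 genes detected that well. The median difference was 0.00 over members and -0.02 over all genes, and the median size without sign 0.192 against 0.156. With levels centred on the array median the split was 38 higher and 6 lower, and the median of all genes moved to 0.125.

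By class, and beside the shares of 7.69% higher and 8.11% lower over all genes, the average rose for 7 and fell for 4 of 29 amino acid and peptide carriers, and rose for 6 and fell for 2 of 37 mitochondrial carriers. It rose for 5 and fell for 5 of 33 inorganic ion carriers, rose for 5 and fell for 1 of 18 vitamin, nucleoside and choline carriers, and rose for 2 and fell for 3 of 24 metal carriers. Among sugar carriers, Slc2a1 and Slc2a9 rose and Slc37a1, which carries glucose 6-phosphate, fell; Slc37a1 was named after its values were seen. No member of the nucleotide sugar (0 of 5) or vesicular (0 of 6) class was called by limma.

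Of the carriers with known roles in lymphocytes, Slc2a1, the main glucose transporter GLUT1, was at 2.60 and 2.36 in control and 2.78 and 2.79 in miR-125b cells with IL-7, and at 2.19 and 2.31 against 2.53 and 2.67 without. Averaged over both conditions it rose by 0.33 ± 0.08 (limma adjusted p = 0.0418). Slc2a3, the other common lymphocyte glucose transporter, differed by 0.02 ± 0.13 (limma adjusted p = 0.933). Slc19a1, the reduced folate carrier, was at 3.24 and 2.89 against 3.45 and 3.92 with IL-7 and at 1.62 and 1.82 against 2.42 and 2.67 without, and rose by 0.72 ± 0.14 (limma adjusted p = 0.0274). Slc25a1, the mitochondrial citrate exporter, rose by 0.57 ± 0.11 (limma adjusted p = 0.0269) and Slc25a33, a mitochondrial pyrimidine nucleotide carrier, by 0.66 ± 0.15 (limma adjusted p = 0.0389). Slc1a5 rose by 0.25 ± 0.05 (limma adjusted p = 0.0293) and Slc44a2, a choline transporter, by 0.23 ± 0.06 (limma adjusted p = 0.0479). In each of these 6 called genes both miR-125b arrays lay above both control arrays in either condition, which describes genes picked by their call and is no further test. The calls were lost in 12 of 17 alternative settings for Slc44a2, 10 for Slc1a5, 9 for Slc2a1, 8 for Slc25a33 and 7 each for Slc19a1 and Slc25a1.

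Other carriers that rose in the average were Slc39a14, a zinc and iron importer (0.65 ± 0.13, limma adjusted p = 0.0263), Slc2a9, a urate transporter (0.64 ± 0.12, limma adjusted p = 0.0225), and Slc6a9, a glycine transporter (0.60 ± 0.14, limma adjusted p = 0.0395). Slc26a11, a sulfate and chloride carrier, fell by 0.56 (SE 0.10, limma adjusted p = 0.0211). Slc46a1, the proton-coupled folate transporter and named after its values were seen, rose by 0.42 ± 0.06 (limma adjusted p = 0.0115). In 10 members the average call was kept in every alternative setting in which they were tested: Slc14a1, Slc39a10, Slc25a22, Slc25a23, Slc25a26 and Slc46a1 among the higher, and Slc15a3, Slc41a3, Slc46a3 and Slc47a2 among the lower. Slc25a23, a mitochondrial ATP-magnesium and phosphate carrier named after its values were seen, rose by 0.53 ± 0.07 (limma adjusted p = 0.00927). The other 37 calls were lost in at least 1 setting. Called members numbered 22 without replicate 2 of control cells with IL-7, 28 without replicate 2 of miR-125b cells with IL-7, 11 and 18 without replicates 1 and 2 of control cells lacking IL-7, and 15 and 16 without those of miR-125b cells lacking IL-7.

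**Figure D2:**
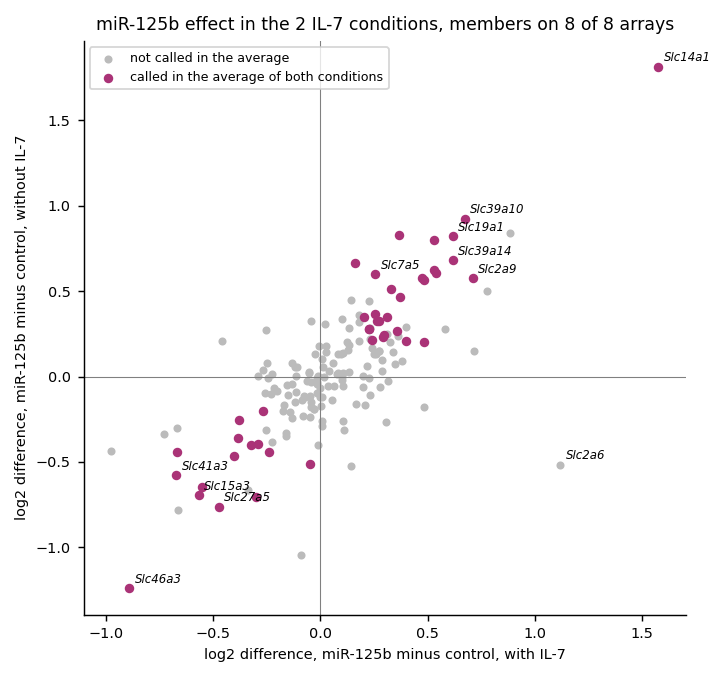
Log2 difference between miR-125b and control cells with IL-7 (x axis) and without IL-7 (y axis) for the 172 members on 8 of 8 arrays; each point is a gene, and purple points were called in the average of both conditions. Slc14a1 lies at 1.58 and 1.81, Slc46a3 at -0.89 and -1.24, and Slc2a6 at 1.12 and -0.52; the axes share no array.

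The next question was how carriers change over 24 h without IL-7. In control cells 97 members (47.1%) differed, 36 higher and 61 lower, beside 54.7% of all genes (19.7% higher and 35% lower). In miR-125b cells 101 members (49%) differed, 33 higher and 68 lower, beside 53.8% of all genes (18.7% higher and 35% lower). Both shares lie under the background. Of the 172 members on 8 of 8 arrays, 16.9% rose and 30.2% fell in control cells, beside 18.3% and 38.6% of 17036 genes. In miR-125b cells 12.2% of them rose and 36.6% fell, beside 16.7% and 39.5%. The median difference was -0.10 and -0.14 over the members and -0.14 and -0.15 over all genes. Of the called members, 49 were lower in both cell types, 80.3% of the list in control cells and 72.1% of the list in miR-125b cells, and 24 were higher in both (66.7% and 72.7%). The same overlap was not counted over all genes, so these shares describe the lists and are not a result about carriers. No member was called in opposite directions (0 by limma), and the comparisons share no array but share the slide and scan of each condition.

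**Figure D3:**
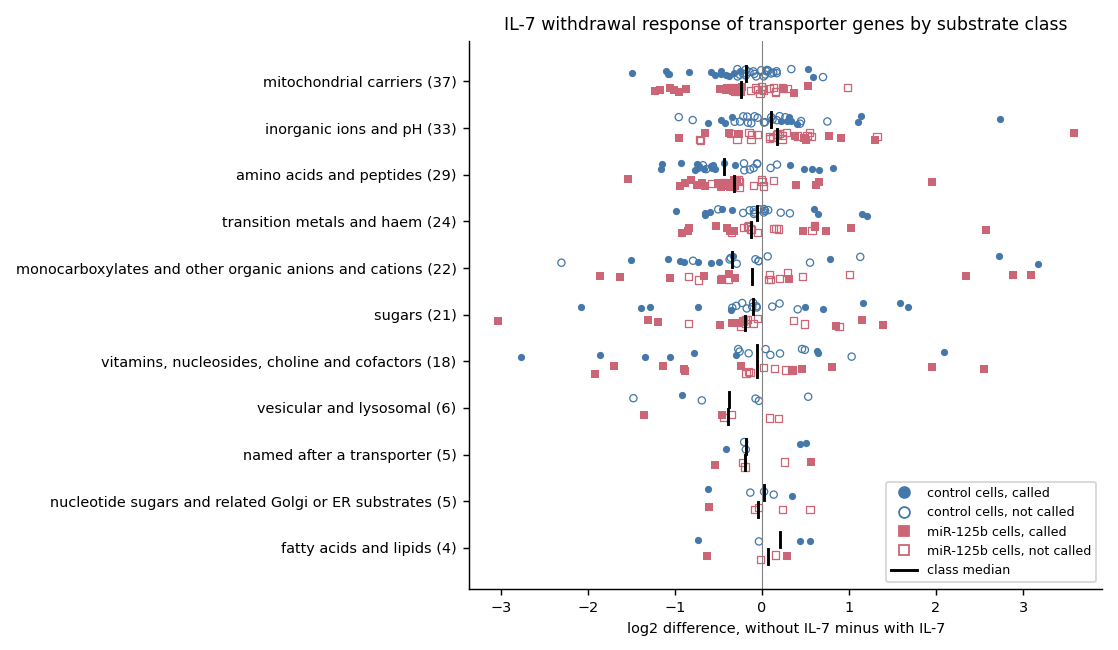
Log2 difference between cells without and with IL-7 for each kept carrier (x axis), by substrate class with its number of members (y axis; classes of at least 4 members); blue circles are control cells, red squares miR-125b cells, filled where called, and black bars are class medians. Amino acid carriers have medians of -0.44 and -0.32 and mitochondrial carriers of -0.19 and -0.25, while carriers of inorganic ions have medians of 0.11 and 0.18.

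Class counts below are read against the 35% of all genes called lower and the 19.7% (control cells) and 18.7% (miR-125b cells) called higher. Mitochondrial carriers fell for 13 of 37 members in control cells (35.1%, the share of all genes) and 17 in miR-125b cells (45.9%), and rose for 2 (5.41%) and 3 (8.11%). Slc25a5 and Slc25a4, the ADP/ATP carriers of the inner membrane, and Slc25a3, its phosphate carrier, were all among those that fell. Slc25a5 was at 6.28 and 5.89 in control cells with IL-7 and at 4.85 and 5.17 without, and at 6.13 and 6.29 against 4.98 and 5.10 in miR-125b cells. It fell by 1.07 (SE 0.17, limma adjusted p = 0.00425) and by 1.18 (SE 0.17, limma adjusted p = 0.00355). Slc25a3 fell by 0.83 and 0.95 and Slc25a4 by 0.58 and 0.87 (limma adjusted p of 0.0023 to 0.00911), with no overlap of the arrays in either cell type.

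Slc25a33 was at 2.48 and 2.02 in control cells with IL-7 and at 0.70 and 0.80 without. It fell by 1.50 (SE 0.21, limma adjusted p = 0.00303), and in miR-125b cells by 1.23, from 2.52 and 3.03 to 1.51 and 1.58 (SE 0.21, limma adjusted p = 0.00578). Slc25a1 went from 3.58 and 3.37 to 2.38 and 2.41 in control cells and from 3.78 and 4.24 to 2.99 and 3.01 in miR-125b cells, falls of 1.08 and 1.01. Slc25a39, which imports glutathione into mitochondria, went from 1.82 and 1.64 to 0.63 and 0.65 and from 1.74 and 1.76 to 0.71 and 0.67. It fell by 1.097 and fell by 1.056 in control and miR-125b cells, with an SE of 0.08. Each of these genes was at least 2-fold lower without IL-7 in both cell types. The mitochondrial folate carrier Slc25a32 did not pass, with differences of -0.25 in control and -0.32 in miR-125b cells.

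Amino acid carriers fell for 14 of 29 members in control cells (48.3%, beside 35% of all genes) and 15 in miR-125b cells (51.7%), and rose for 5 (17.2%) and 4 (13.8%). Slc7a5 went from 2.52 and 2.42 to 1.72 and 1.88 in control cells, a fall of 0.67 (SE 0.10, limma adjusted p = 0.00311), and from 2.72 and 2.73 to 2.32 and 2.48 in miR-125b cells, a fall of 0.32 (SE 0.10, limma adjusted p = 0.0333). Slc43a1, the related leucine transporter LAT3, fell by 0.37 in miR-125b cells (limma adjusted p = 0.0143; -0.14 in control cells, limma adjusted p = 0.219). Slc7a6, which exchanges cationic for neutral amino acids, went from 1.02 and 0.91 to -0.01 and 0.06 in control cells, and fell by 0.94 there and by 0.88 in miR-125b cells. Slc7a1, the arginine importer, fell by 0.57 (limma adjusted p = 0.0143) and by 0.42 (limma adjusted p = 0.0399). Slc3a2 fell by 0.44 in control cells (limma adjusted p = 0.0215), while its difference of -0.26 in miR-125b cells did not pass (limma adjusted p = 0.104). The glutamine transporters showed smaller values: Slc38a1 fell by 0.30 and 0.42, although its other kept probes gave as little as -0.10 and -0.16 and values of the authors' deposited table gave -0.003 and -0.079, and Slc1a5 (-0.06 and -0.001) and Slc38a2 (-0.21 and -0.10) did not pass.

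In the other direction, Slc1a4, the alanine, serine and cysteine transporter ASCT1, rose. It went from 1.44 and 1.57 to 2.35 and 2.30 in control cells, by 0.82 ± 0.09 (limma adjusted p = 0.00165), and from 1.69 and 1.54 to 2.29 and 2.24 in miR-125b cells, by 0.66 ± 0.09 (limma adjusted p = 0.00284). Slc38a9, the lysosomal arginine sensor, rose by 0.66 ± 0.10 and 0.62 ± 0.10, and its 3 kept probes gave 0.66 to 1.34 in control cells; it was named after its values were seen. Slc43a2 rose by 0.49 and 0.40 (limma adjusted p = 0.024 and 0.0474).

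Folate and nucleoside carriers included the steepest falls of the vitamin and nucleoside class, which fell for 6 and rose for 3 of 18 members in control cells and fell for 6 and rose for 5 in miR-125b cells (33.3% lower in both). Slc19a1 fell by 1.34 (SE 0.20, limma adjusted p = 0.00356) in control cells and by 1.14 (SE 0.20, limma adjusted p = 0.0062) in miR-125b cells, with the levels given above. Slc46a1 went from 0.27 and 0.18 to -0.91 and -0.76 and from 0.52 and 0.59 to -0.33 and -0.32, falls of 1.06 and 0.88 with an SE of 0.08. Both carriers of folate thus moved the same way and without overlap.

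Slc29a1, the equilibrative nucleoside transporter ENT1, went from 5.29 and 5.12 to 4.45 and 4.41 in control cells, a fall of 0.78 (SE 0.09, limma adjusted p = 0.00181), and fell by 0.90 in miR-125b cells. Slc29a2, its relative ENT2, was measured with IL-7 (-2.24 and -2.90) and not well above background in control cells without it, which put it at least 3.54-fold lower (limma adjusted p = 0.0049). In miR-125b cells, where it stayed above background, it fell by 1.92 (SE 0.47, limma adjusted p = 0.0172). Slc28a3, a concentrative nucleoside transporter, was at least 1.41-fold and 1.77-fold lower. Slc5a6, the importer of biotin and pantothenate, went from 0.72 and 1.11 to -0.49 and -0.29 in miR-125b cells, a fall of 1.30 (SE 0.15, limma adjusted p = 0.0023), and fell by 0.74 in control cells. It is counted among the sugar families by its family number. Against these, Slc23a1, an ascorbate transporter, rose by 0.63 ± 0.16 and 0.80 ± 0.16 (limma adjusted p = 0.0199 and 0.00927).

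Of 24 metal carriers, 4 were higher and 6 lower in control cells (25% lower) and 5 higher and 7 lower in miR-125b cells (29.2% lower). Slc11a2 went from 1.20 and 1.17 to 2.37 and 2.41 in control cells and from 1.18 and 1.09 to 1.81 and 1.94 in miR-125b cells. It rose by 1.20 ± 0.08 (limma adjusted p = 0.000922) and by 0.74 ± 0.08 (limma adjusted p = 0.00195), and its other probe rose less, by 0.57 in control cells. Of 13 kept zinc importers of family Slc39, 5 fell and 1 rose in control cells, and 5 fell and 2 rose in miR-125b cells. Slc39a14 fell by 0.99 and 0.92 and Slc39a7, of the endoplasmic reticulum, by 0.46 and 0.53, and Slc39a6 (-0.65 and -0.85) and Slc39a2 (-0.65 and -0.84), named after their values were seen, were also lower, whereas Slc39a11 rose by 1.15 ± 0.27 and 1.03 ± 0.27. Slc39a10 fell by 0.60 in control cells (limma adjusted p = 0.00904), and its difference of -0.35 in miR-125b cells did not pass (limma adjusted p = 0.0537). Of zinc exporters, Slc30a4 rose by 0.60 and 0.47, while Slc30a1 (-0.09 and -0.05) and Slc30a5 (0.32 and 0.16) did not pass.

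Sugar families fell for 5 and rose for 5 of 21 members in control cells (23.8% each), and fell for 7 (33.3%) and rose for 3 (14.3%) in miR-125b cells. Slc5a11, a sodium-coupled inositol transporter, went from -0.71 and -1.16 to -2.72 and -3.30 in control cells and from -0.90 and -1.15 to -4.36 and -3.75 in miR-125b cells. It fell by 2.08 (SE 0.29, limma adjusted p = 0.00297) and by 3.03 (SE 0.29, limma adjusted p = 0.00184), the largest falls among members on 8 of 8 arrays. Slc45a3 went from 1.22 and 1.18 to -0.25 and 0.06 in control cells and fell by 1.29 and 1.19. Slc5a9, a sodium-coupled sugar transporter, fell by 1.39 in control cells (SE 0.38, limma adjusted p = 0.0244), while -0.84 in miR-125b cells did not pass (limma adjusted p = 0.106). Slc45a1 rose by 1.17 ± 0.35 in control cells (limma adjusted p = 0.0344), and Slc37a3 rose by 0.70 and 0.84. Slc2a6 rose in control cells by 1.58 ± 0.15 (limma adjusted p = 0.0015). Its rise ranged from 0.33 to 1.68 over 18 alternative settings. The glucose transporters Slc2a1 (-0.23 and -0.19) and Slc2a3 (0.20 and -0.17) did not pass in either cell type. Slc37a4, the glucose 6-phosphate carrier of the endoplasmic reticulum, fell by 0.36 and 0.35, but its other kept probe gave 0.43 and 0.76.

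Carriers of inorganic ions rose for 9 of 33 in control cells (27.3%, beside 19.7% of all genes) and 7 in miR-125b cells (21.2%, beside 18.7%), and fell for 4 in each (12.1%, beside 35%). Slc4a8, a sodium-driven bicarbonate exchanger, was not well above background on the 4 arrays with IL-7 and was at -2.43 and -2.47 in control cells and -2.58 and -2.43 in miR-125b cells without it. On this scale that is at least 4.37-fold and 4.56-fold higher, for a gene that was kept only through the groups where it is high. With normexp background correction, whose offset shrinks differences of dim probes, the fitted differences of Slc4a8 were 0.43 and 0.48. Slc20a1, a phosphate importer, fell by 0.47 and 0.66, and Slc4a2, a chloride-bicarbonate exchanger, by 0.42 and 0.38.

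Monocarboxylate and organic ion carriers fell for 8 and rose for 3 of 22 in control cells (36.4% and 13.6%) and fell for 7 and rose for 4 in miR-125b cells (31.8% and 18.2%). Slc16a7, the pyruvate and lactate carrier MCT2, is named here for its size after its values were seen. It was above background on 7 arrays and went from -3.91 and -3.49 to -0.83 and -1.12 in control cells and from -4.34 and -4.63 to -1.13 and -1.66 in miR-125b cells. The rises were 2.73 ± 0.24 (limma adjusted p = 0.00144) and 3.09 ± 0.24 (limma adjusted p = 0.00158). Slc16a6, a carrier of the same family, fell by 0.90 and 0.66, while Slc16a1 and Slc16a3, the main lactate carriers, did not pass (-0.37 and 0.55 in control cells). Slc13a4, a sodium-sulfate cotransporter that was dim with IL-7, was at least 2.78-fold and 1.75-fold higher on this scale and was likewise kept only through the groups where it is high. With normexp background correction its differences were 0.223 in control and -0.028 in miR-125b cells. The size thus held in neither cell type there, and the direction only in control cells. Slc10a1, the bile acid importer of hepatocytes, was at 9.88 and 9.96 in control cells with IL-7 and at 8.72 and 9.24 without, a fall of 0.94 (SE 0.25, limma adjusted p = 0.0221). In miR-125b cells it was at 9.71 and 9.86 against 9.36 and 8.76, and the difference of -0.73 did not pass (limma adjusted p = 0.0507). In control cells values of the authors' deposited table gave -0.152 for Slc10a1 (limma adjusted p = 0.582).

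In the small classes, Slc35a4 fell by 0.62 and 0.61, and the CMP-sialic acid transporter Slc35a1 rose by 0.34 in control cells (limma adjusted p = 0.0165; 0.24 in miR-125b cells, limma adjusted p = 0.0543). Fatty acid carriers split, with Slc27a1 lower by 0.73 and 0.63 and Slc27a3 higher by 0.56 and 0.29. Slc27a4 did not pass (-0.03 and -0.02). Of the 5 genes named after a carrier, 2 rose and 1 fell in control cells, and 1 rose and 1 fell in miR-125b cells. Of the vesicular class, Slc18a3, the vesicular acetylcholine transporter, fell by 1.35 in miR-125b cells (SE 0.25, limma adjusted p = 0.00701), while -0.69 in control cells did not pass (limma adjusted p = 0.0603).

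**Figure D4:**
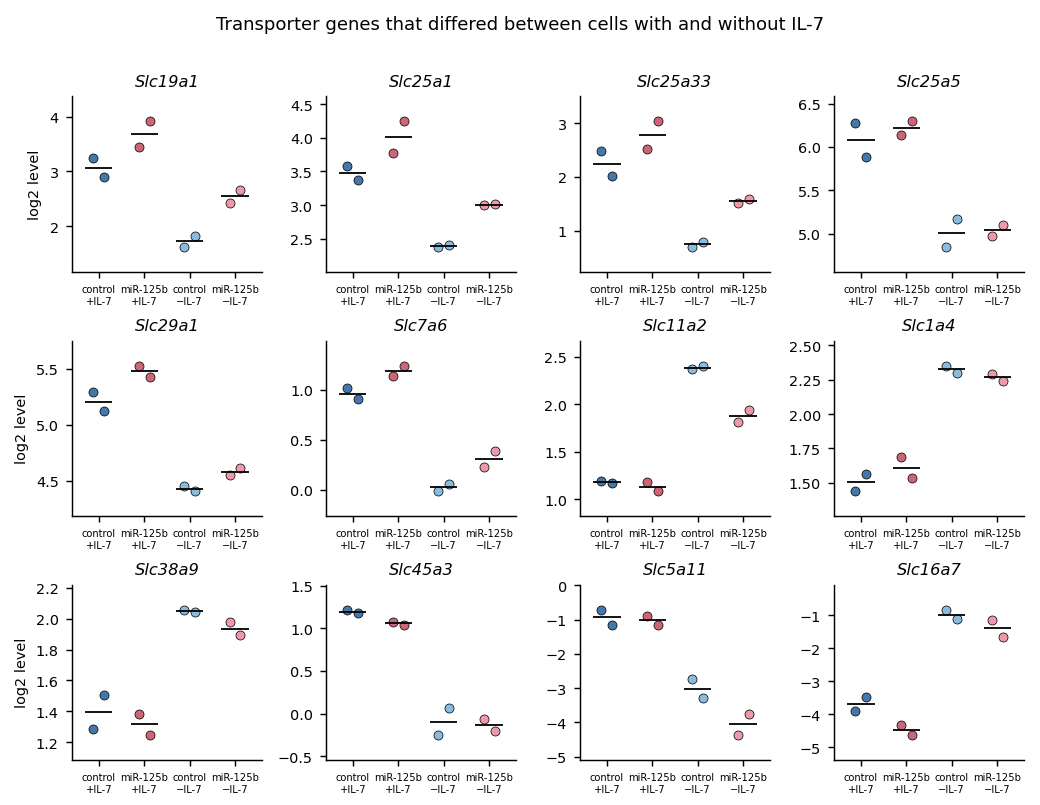
Log2 level (array 75th percentile at 0) of 12 carrier genes on each of the 8 arrays, by group; each point is 1 array and each bar the mean of 2. The arrays without IL-7 lie below those with IL-7 of the same vector for Slc19a1, the Slc25 genes, Slc29a1, Slc7a6, Slc45a3 and Slc5a11, and above them for Slc11a2, Slc1a4, Slc38a9 and Slc16a7.

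Calls on withdrawal depended on the scaling and on single arrays. Centred on the array median, which moves the median of all genes to -0.47 in control and -0.37 in miR-125b cells, 12 members were higher and 99 lower in control cells and 21 higher and 82 lower in miR-125b cells. Quantile normalization gave 41 higher and 57 lower, and 40 higher and 52 lower. With normexp background correction, 31 were higher and 86 lower in control cells. In control cells, 62 members were called without replicate 1 of the control cells with IL-7 and 53 without replicate 1 of those lacking it. In miR-125b cells, 64 were called without replicate 2 of the cells with IL-7, and 61 and 66 without replicates 1 and 2 of those lacking it. In control cells 36 calls and in miR-125b cells 42 calls were kept in every alternative setting in which the gene was tested, Slc19a1, Slc46a1, Slc25a1, Slc25a3, Slc25a5, Slc25a33, Slc25a39, Slc29a1, Slc7a6, Slc5a11, Slc45a3, Slc11a2, Slc1a4 and Slc16a7 among both. The calls of Slc4a8 were kept too, but that gene entered only through the groups where it is high, so their persistence adds no support. Where several probes of a called gene were kept, they had opposite signs for 7 of 29 genes in control cells and 8 of 24 in miR-125b cells, Slc34a1, Slc16a13 and Slc31a2 among both; the latter pair were named after their values were seen.

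Whether miR-125b altered the response to withdrawal was tested as the difference of the withdrawal responses. In limma's test 0 members and 0% of all genes were called. At an unadjusted p under 0.05 there were 17 members (8.25%) and 1220 of all genes (5.9%), and the lowest adjusted p was 0.331 for a member and 0.125 for any gene. The largest difference in a member on 8 of 8 arrays was that of Slc2a6, whose rise in control cells (1.58) stood against -0.05 in miR-125b cells, a difference of -1.64 ± 0.21 (limma adjusted p = 0.357). Slc11a2 rose by 0.46 less in miR-125b cells (SE 0.11, limma adjusted p = 0.591). With 2 arrays a group, these values do not show that the responses are alike.

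Several carriers that fell on withdrawal were higher with miR-125b. The 2 comparisons share the control arrays with and without IL-7, so their values are set side by side only. For Slc19a1 the average miR-125b difference was 0.72 and the withdrawal difference in control cells -1.34. The same values were 0.66 and -1.50 for Slc25a33, 0.57 and -1.08 for Slc25a1, 0.80 and -0.60 for Slc39a10, 0.43 and -0.67 for Slc7a5 (0.08 and -0.61 for its other probe), and 0.31 and -0.58 for Slc38a7, a lysosomal glutamine and asparagine exporter named after its values were seen. In the other direction, Slc11a2 had -0.28 and 1.20 and Slc43a2 -0.60 and 0.49. Some members were called in the same direction in both comparisons, such as Slc15a3 (-0.63 and -0.535), Slc2a9 (0.64 and 0.50) and Slc24a3 (0.41 and 0.40). Such pairs of calls were not counted over all genes, so they describe single carriers and not the set. Withdrawal in miR-125b cells lowered Slc19a1 to 2.42 and 2.67, which stayed above the 1.62 and 1.82 of control cells without IL-7 and under the 2.89 and 3.24 of control cells with it.

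Promoter windows from RefSeq (GRCm38.p6, 250 bases before to 50 after an annotated start) were matched by symbol for 152 of the 206 members and searched for letters known as factor motifs. The E-box CACGTG, known from MYC and USF binding and the same on both strands, was in a window of 27 members (17.8%), of 8.09% of 27025 genes, of 8.91% of 17492 protein-coding genes and of 11.2% of 10820 genes kept on these arrays. Among members with a window, on 8 of 8 arrays, 8 of 35 called lower in both cell types held it (22.9%). It was held by 3 of 14 of those called higher (21.4%). A gene counts where any of its windows holds the letters. TTCNNNGAA, the letters of a STAT5 site, the same on both strands, was in 4.61% of members, 8.64% of kept genes and 9.55% of all genes. GTAAACA, a FOXO motif, was in 1.97%, 3.19% and 4.05%, and TGATGNAA, an amino acid response motif, in 2.63%, 2.88% and 4.51%, both strands counted. These matches are letters, not binding sites. Of 13 members called higher in the miR-125b average and lower on withdrawal in control cells (8 of 8 arrays), 9 had a window. The E-box was in 3 of these 9 (33.3%). Of 5 members called the other way in both, 3 had a window and 0 held it. These sets were drawn from the same data, their sizes were not set against all genes, and their shares were not tested. Windows are shown for the 3 that hold it, Slc38a7, Slc25a1 and Slc25a33. Those of Slc19a1, Slc39a10, Slc6a9, Slc25a22, Slc46a1, Slc43a2 and Slc23a2 (named for its window only) do not hold it. Slc7a5 and Slc11a2 had no window. Those shown lie at chr8:95853442-95853741, minus strand, chr16:17928170-17928469, minus strand and chr4:149774218-149774517, minus strand, and the E-box, in capitals, begins 34, 239 and 8 bases before the start.
Slc38a7: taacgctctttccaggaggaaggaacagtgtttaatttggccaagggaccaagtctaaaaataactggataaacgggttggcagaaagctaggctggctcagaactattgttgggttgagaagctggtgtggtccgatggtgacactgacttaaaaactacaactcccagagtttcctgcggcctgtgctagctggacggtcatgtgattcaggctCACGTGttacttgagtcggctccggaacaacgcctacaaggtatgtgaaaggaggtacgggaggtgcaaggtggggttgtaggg
Slc25a1: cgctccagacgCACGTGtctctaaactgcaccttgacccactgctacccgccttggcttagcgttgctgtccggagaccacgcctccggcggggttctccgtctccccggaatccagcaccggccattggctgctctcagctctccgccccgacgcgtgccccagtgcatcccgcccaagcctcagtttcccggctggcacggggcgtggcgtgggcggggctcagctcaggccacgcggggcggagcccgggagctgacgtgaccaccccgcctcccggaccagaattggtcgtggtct
Slc25a33: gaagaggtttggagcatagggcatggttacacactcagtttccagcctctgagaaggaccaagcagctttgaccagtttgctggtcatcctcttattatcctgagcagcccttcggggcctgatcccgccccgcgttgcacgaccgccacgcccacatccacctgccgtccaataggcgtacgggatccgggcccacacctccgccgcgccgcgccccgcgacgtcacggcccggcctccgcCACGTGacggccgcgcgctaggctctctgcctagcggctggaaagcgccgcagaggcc

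Transporters and carrier partners without a solute carrier name were read from a list of 42 genes, of which 37 were kept. On withdrawal 19 fell (51.4%, beside 35% of all genes) and 3 rose (8.11%, beside 19.7%) in control cells, and 18 fell (48.6%, beside 35%) and 2 rose (5.41%, beside 18.7%) in miR-125b cells. With miR-125b, 1 rose and 1 fell in IL-7 (2.7% each, beside 1.18% and 1.2%). Without it 3 rose and 1 fell (8.11% and 2.7%, beside 2.85% and 3.58%), and in the average 6 rose and 4 fell (16.2% and 10.8%, beside 7.69% and 8.11%). Sfxn2, a mitochondrial sideroflexin, was at 1.81 and 1.56 in control and 2.49 and 2.44 in miR-125b cells with IL-7, and at 0.83 and 0.80 against 2.00 and 1.97 without. It rose by 0.77 (limma adjusted p = 0.0318) and by 1.17 (limma adjusted p = 0.0094), the miR-125b arrays lying above the control arrays in each condition. Nipa2, a magnesium transporter, fell by 0.66 (limma adjusted p = 0.0247) and by 0.76 (limma adjusted p = 0.00999). Its relative Nipa1 differed by 0.64 with IL-7 and 0.11 without and did not pass (limma adjusted p = 0.0949 and 0.699). Of the magnesium carriers of family Slc41, Slc41a3 was lower in the average, and Slc41a1, named after its values were seen, was higher by 0.30 (limma adjusted p = 0.0172).

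Tfrc, the transferrin receptor, was at 3.09 and 3.11 in control cells with IL-7 and at 2.64 and 2.60 without, a fall of 0.48 (limma adjusted p = 0.0118), beside the rise of the iron importer Slc11a2. Steap3, the endosomal iron reductase, fell by 0.78 (limma adjusted p = 0.00166) and 0.80 (limma adjusted p = 0.00192). With miR-125b, Tfrc rose by 0.57 in the average (limma adjusted p = 0.0101). Bsg, the chaperone of monocarboxylate carriers, fell by 0.56 and 0.49 on withdrawal, and the mitochondrial pyruvate carrier genes Mpc1 and Mpc2 fell by 0.32 to 0.43, while the sodium pump subunit Atp1b1 rose by 0.80 in control cells (limma adjusted p = 0.00349).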

How the data were processed

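RNA abundance came from 8 single-colour Agilent arrays. Per the file headers, the deposited scanner files hold a background-subtracted, spatially detrended spot intensity (linear, not normalized between arrays) and other values, 0 or 1, that mark each spot's quality. The headers name Feature Extraction 10.7.3.1 (with IL-7) and 10.7.1.1 (without); the submitters' processing notes name 10.7.1.1. A second deposited table by the authors holds intensity values with equal medians (21.7) and was used as an alternative; its columns correlate with the scanner signal at r of at least 0.9993.

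Of 55681 probes, 58 not uniform were dropped. Values were log2 intensity minus the array's 75th percentile. limma 3.58.1 (lmFit, eBayes; R 4.3.3) fitted 4 group means to 8 arrays, with 4 residual degrees of freedom, and 6 comparisons were adjusted by Benjamini-Hochberg over 20686 genes, two-sided, called under 0.05. Array number limits the precision. The grid versions name genes differently for 14.3% of spots; the newer names were used. Members, lists and classes were chosen with earlier results of these data known. Named genes are up to 6 higher and 6 lower per comparison, bounds, a list of 37 carriers, the brightest of each class where a value adds to the text, and called partners; exceptions are marked, and some items are not reported here. Background correction, scaling, filters, probe choice, variance model, the deposited table, a replicate block and leaving out each array were tried as alternatives. The fit was tested on simulated data.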

Additional observations from a re-analysis of the deposited data

How the results depend on the processing

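Every number of called members changed by over 1.5 times under some setting, except that for the difference of the withdrawal responses, which stayed at 0 outside the leave-one-out fits (0 to 1). With IL-7, the count for miR-125b was 5; it was 8 with normexp background, 3 scaled to the median, 0 without a filter on dim probes, 15 with only probes above background on all arrays, 0 from the arrays compared alone and 18 with a mean-variance trend, and 0 to 2 when single arrays were left out. Without IL-7 it was 20; it was 36 with normexp, 4 without the filter, 11 from the arrays compared alone, 35 with the trend, 13 with the mean of all kept probes, and 0 to 20 with single arrays left out. For the average it was 47, or 14 without the filter and 11 to 43 with arrays left out. For withdrawal in control cells it was 97, or 62 without the filter and 53 to 95 with arrays left out; in miR-125b cells it was 101, or 63 and 61 to 96. The labels do not say whether shared replicate numbers pair the samples. Replicate differences correlated between groups at -0.099 to 0.115 across genes, which shows no sign of pairing but cannot exclude it with 1 difference per group. The fit with a replicate block called 0, 6, 35, 88, 92 and 0 members in the 6 comparisons. Of the calls on withdrawal, 12 in control cells and 14 in miR-125b cells turned sign in at least 1 setting. Among the genes named by rule, those with normexp background were, in control cells, Slc24a3 (-0.066), Slc44a3 (-0.186) and Slc6a19 (-0.584), and in miR-125b cells Slc13a4 (-0.028), Slc34a1 (-0.065), Slc39a5 (-0.164), Slc44a3 (-0.145) and Slc6a19 (-0.32). Slc37a4 turned to 0.035 and 0.206 with the mean of its probes; the cause was not tested. With normexp, 31 members rose and 86 fell on withdrawal in control cells and 26 and 87 in miR-125b cells. Signal near background limits the dim members, of which 23 had only a bound or none in some group.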
